A study of Sus scrofa with 32 samples.

Results

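A set of 48 genes that cells use to copy DNA and to divide was followed through B cells, T cells and epithelial cells of pig ileum and blood. The genes were taken by symbol from a list, and 44 of the 48 were found among the 25880 genes of the count matrices. Of these, 42 carried their symbol in the matrices, and CCNB3 and CDK1 were matched through a table of gene names. RRM2, MKI67, AURKA and CCNA2 were matched to no row and were not analysed here. The set holds a replication panel of 9 genes (MCM2 to MCM7, PCNA, CDC6 and UNG), a mitosis panel of 5 genes (CCNB1, CCNB3, CDC20, ASPM and BUB1) and 30 further genes that were read in neither panel.

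Before a cell copies its genome, CDC6 and CDT1 load the ring of MCM2 to MCM7 onto DNA, and the GINS complex, with GINS2, turns that ring into an active helicase. PCNA then clamps the polymerases to the template, TYMS, TK1 and RRM1 supply nucleotides, CHAF1B and ASF1B bring histones, and UNG cuts out uracil. Cyclin B1 (CCNB1) with the kinase CDK1 drives entry into mitosis. BUB1 holds the cell back until every chromosome is attached, and CDC20 activates the ligase that ends mitosis. In gut lymphoid tissue such genes are best known from the germinal centers of Peyer's patches, where B cells divide rapidly.

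The study isolated single cells from 2 mixed-breed pigs of 7 weeks, pig 1 labelled female and pig 2 labelled male, with no treatment. By the labels each pig gave 4 libraries: ileum with Peyer's patches (PP), ileum without them (non-PP), whole ileum, and peripheral blood mononuclear cells (PBMC). Ileal cells had passed a density gradient and removal of dead cells, which enriches lymphocytes, and each library is 1 dissection of 1 animal. All 8 libraries were made by the same droplet method, which counts transcripts by unique molecular identifiers (UMIs).

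Cells with at least 550 genes that also passed a minimum of UMIs and a maximum mitochondrial share were kept, which left 48629 cells, 3776 to 7704 per library, with total UMIs of 21134542 to 40111934 per library. The whole ileum library of pig 1 held 206.6 Y-linked CPM (UMIs per 1000000), against 0 to 0.224 in the other libraries of that pig and 119 to 226 in those of pig 2. This library therefore went against its label. The counts of genes called for ileum against blood and for B against T cells are given with and without it. Ranges over ileal libraries, counts of genes without overlap, levels in cells chosen by their panel UMIs and levels in T cell subsets are given only with it. Any pair of libraries shared 21 to 80 cell barcodes. B cells were taken as cells with at least 1 CD79B UMI, T cells as cells with at least 1 CD3E UMI and epithelial cells as cells with at least 2 EPCAM UMIs, and cells that passed more than 1 of these gates were left out.

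Of the B, T and epithelial marker lists, each was highest in the gate of its own class, with several limits. The summed level of 9 further B cell markers was 1135 to 2011 CPM of the class in CD79B cells and 9.09 to 71.8 CPM in CD3E cells. The summed level of 8 T cell markers was 2171 to 5307 CPM in CD3E cells and 123 to 702 CPM in CD79B cells, highest in non-PP of pig 2. Many CD79B cells held some UMI of these 8 markers. None was held by 1204 of 3853 and 964 of 3790 CD79B cells in PP. The like counts were 14 of 27 and 7 of 65 in non-PP, and 1153 of 1601 and 815 of 1274 in blood. The non-PP CD79B cells were few, 27 in pig 1 and 65 in pig 2, and their 4 markers of antibody-secreting cells (JCHAIN, PRDM1, XBP1 and MZB1) summed to 32382 and 34737 CPM, against 4928 and 5826 CPM in PP. The part of that difference in the results on non-PP B cells was not tested. The same 4 markers reached 3228 CPM in CD3E cells of whole ileum of pig 2. EPCAM cells numbered 29 to 164 per ileal library and held 7648 to 11139 CPM of 9 epithelial markers, and no PBMC cell passed that gate. The summed level of 6 myeloid markers reached 2794 CPM in EPCAM cells of PP of pig 1.

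In B cells both panels were several times higher in ileum than in blood. The replication panel made up 1300 and 1170 CPM in PP of pigs 1 and 2, 956 and 954 CPM in non-PP, 1035 and 1466 CPM in whole ileum, and 325 and 222 CPM in blood. The mitosis panel made up 295 and 298 CPM in PP, 345 and 214 CPM in non-PP, 274 and 319 CPM in whole ileum, and 59.9 and 63.6 CPM in blood. For both panels all 6 ileal libraries lay above both blood libraries. For replication both non-PP libraries lay below all 4 PP and whole ileum libraries, which overlapped each other, while for mitosis the 3 dissections overlapped. A summed level cannot tell more dividing cells from more transcripts per dividing cell.

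In T cells that passed no other gate, blood held the higher level of both panels within each pig. With cells of more than 1 gate kept, the means of PP and whole ileum were above blood in both panels, as given below. The replication panel made up 460 and 313 CPM in PP, 333 and 235 CPM in non-PP, 356 and 343 CPM in whole ileum, and 736 and 387 CPM in blood. Blood of pig 1 stood highest, and blood of pig 2 lay below PP of pig 1, so that the groups overlapped. The mitosis panel made up 90.6 and 55.7 CPM in PP, 82.4 and 39.2 CPM in non-PP, 61.8 and 66.9 CPM in whole ileum, and 118 and 87.4 CPM in blood, which overlapped through PP of pig 1 alone.

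**Figure D1:**
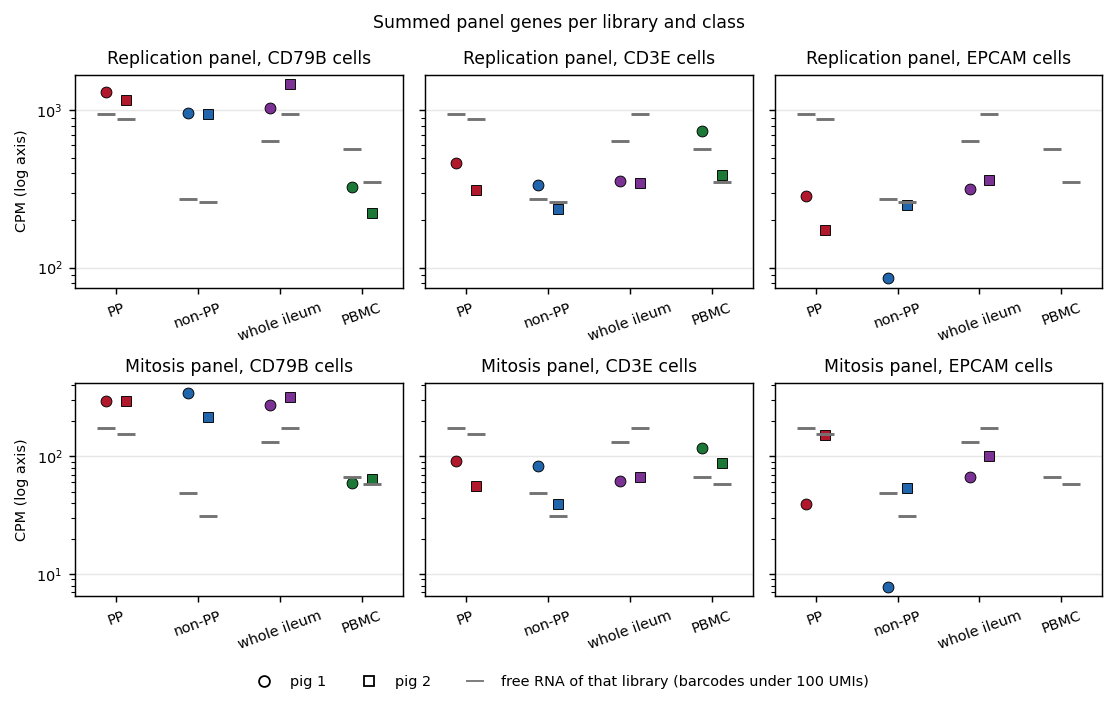
CPM of the summed replication panel (upper row) and mitosis panel (lower row) in CD79B, CD3E and EPCAM cells, on log axes, with 1 point per library (circle pig 1, square pig 2) and a grey dash for the same genes in barcodes under 100 UMIs of that library. In CD79B cells all ileal points lie above the blood points, while in CD3E cells blood of pig 1 (736 and 118 CPM) is the highest point of both rows.

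RNA outside cells also held these genes. In barcodes under 100 UMIs, which carry free RNA, the replication panel was 949 and 881 CPM in PP, 274 and 260 CPM in non-PP, 640 and 947 CPM in whole ileum, and 568 and 349 CPM in blood. Free RNA was thus above the T cell level in PP and whole ileum, below the B cell level in every ileal library, and above the B cell level in blood. CD14 cells of blood that passed no gate, CD14 being a marker of monocytes, held 90.3 and 67.1 CPM of the replication panel and 6.51 and 2.32 CPM of the mitosis panel, at median depths of 6282 and 6835 UMIs. Blood T cells, at median depths of 3162 and 3370.5 UMIs, were above these CD14 cells of the same libraries in both panels. The part of free RNA in the class differences was not tested.

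The share of B cells with a UMI of each panel was also higher in every ileal library than in blood. After every cell was thinned to the minimum UMI count of a kept cell, 51.4% of PP CD79B cells of pig 1 (exact 95% interval 49.8% to 53.0%) and 50.0% of pig 2 (48.4% to 51.6%) held a replication UMI. The share was 55.6% (35.3% to 74.5%) and 38.5% (26.7% to 51.4%) in non-PP, at nearly equal CPM, and 43.6% and 58.1% in whole ileum. In blood the shares were 20.9% (18.9% to 22.9%) and 16.4% (14.4% to 18.6%), and in the CD14 cells of blood they were 10.2% and 7.53%. A mitosis UMI was held by 16.01% and 14.8% of PP B cells, by 22.2% and 15.4% of non-PP B cells, by 13.8% and 16.8% of whole ileum B cells and by 2.62% and 4.47% of blood B cells. Without thinning the PP shares were 69.6% and 67.0% for replication and 29.2% and 28.3% for mitosis. These intervals cover counting error only.

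In T cells the thinned shares of the organs overlapped. A replication UMI was held by 28.4% and 23.0% of PP T cells, 19.8% and 18.9% of non-PP T cells, 23.1% and 24.0% of whole ileum T cells and 27.5% and 18.7% of blood T cells. Blood of pig 2 was thus the lowest of the 8 libraries by this share although its CPM was the third highest, and no order is read from it. A mitosis UMI was held by 5.77% (4.98% to 6.64%) and 4.41% (3.68% to 5.24%) of blood T cells, by 4.84% and 3.03% of PP T cells, by 3.29% and 1.84% of non-PP T cells and by 3.06% and 3.52% of whole ileum T cells. In the CD14 cells of blood it was held by 0.488% and 0.251% of cells.

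For tests across all genes, counts were summed per library and class, 22 sums were put in 1 edgeR quasi-likelihood fit, with p-values adjusted by the Benjamini-Hochberg method over the 11920 genes tested and calls made under 0.05. All 44 found genes passed the filter on low counts. The sums of different classes come from the same libraries, and by the labels the 4 libraries of a number come from the same animal. The main fit had no term for animal or library and took the 22 sums as independent. Its p-values therefore measure the spread between these few sums and not the spread between animals, of which there were 2.

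Ileal and blood B cells differed across nearly the whole set. Of the 44 genes, 41 were higher in ileum and 0 were lower, where 11.1% of all genes tested were called higher and 16.1% lower. The median log2 difference was 1.93, against -0.13 over all genes tested, and the 41 called genes were 2.33-fold to 9.9-fold higher. In 41 of 44 genes all 6 ileal libraries were above both blood libraries, where this held for 14.1% of all genes. BARD1, RRM1 and PKMYT1 were the 3 genes not called, at adjusted p of 0.056, 0.069 and 0.075 by edgeR.

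Each gene of the helicase ring was called in B cells. MCM2 ranged from 24.9 to 49.0 CPM over the 6 ileal libraries (median 41.3), against 12.6 and 8.47 CPM in blood. Its lowest ileal value came from 8 UMIs in non-PP of pig 2. MCM3 ranged from 46.6 to 94.7 CPM (median 73.2), against 17.5 and 12.3 CPM. MCM4 ranged from 71.5 to 137 CPM (median 96.98), against 28.1 and 19.6 CPM. No ileal library of these 3 subunits overlapped blood. MCM5 ranged from 18.6 to 56.9 CPM (median 40.2), against 15.4 and 6.10 CPM in blood. Its lowest ileal value, from 6 UMIs in non-PP of pig 2, came close to blood of pig 1. MCM6 ranged from 79.0 to 166 CPM (median 133), against 38.8 and 28.1 CPM. MCM7 ranged from 165 to 285 CPM (median 229), against 56.7 and 35.2 CPM. The fitted log2 differences of the 6 subunits lay between 1.54 ± 0.49 (SE) for MCM5 and 2.13 ± 0.38 for MCM7, with adjusted p of 0.027 and 5.5e-04 by edgeR's quasi-likelihood test.

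The loader, the clamp and the uracil glycosylase followed. CDC6 ranged from 18.6 to 35.9 CPM in ileal B cells (median 31.7), against 6.23 and 5.8 CPM in blood. PCNA ranged from 338 to 649 CPM (median 471), against 133 and 97.4 CPM. CDC6 was 2.10 ± 0.36 and PCNA 1.92 ± 0.33 log2 units higher, with adjusted p of 3.3e-04 and 4.1e-04 by edgeR. UNG ranged from 14.4 to 52.5 CPM (median 30.3), against 16.7 and 8.77 CPM. UNG was the 1 replication gene whose libraries overlapped, through non-PP of pig 1, a sum of 2 UMIs. Its difference, 1.22 ± 0.36 with an adjusted p of 0.019 by edgeR, was the smallest of the panel.

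All 5 mitosis genes were called in the same direction, although CCNB3 did not keep it after thinning. CCNB1, the main B-type cyclin, ranged from 95.5 to 108 CPM in ileal B cells (median 105), against 20.7 and 18.9 CPM in blood. CDC20 ranged from 68.3 to 129 CPM (median 114), against 16.6 and 19.8 CPM. CDC20 had the largest difference of the panel, 2.39 ± 0.37 with an adjusted p of 1.5e-04 by edgeR. ASPM, which focuses spindle poles, ranged from 24.9 to 48.0 CPM (median 38.0), against 11.2 and 13.7 CPM. BUB1 ranged from 18.6 to 43.1 CPM (median 30.05), against 8.21 and 8.62 CPM, where both ends were non-PP sums of 6 UMIs. CCNB3 was sparse, at 6.21 to 21.6 CPM (median 8.52) against 3.19 and 2.68 CPM, and its fitted log2 difference was -0.63 after thinning. Both ends of its ileal range were non-PP sums, of 2 UMIs in pig 2 and 3 UMIs in pig 1. No ileal library of any of the 5 genes overlapped blood.

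Of the 30 genes outside the panels, 27 were called higher in ileal B cells, and the 5 with the largest differences act in mitosis. PIMREG, a mitotic regulator, was 2.76 ± 0.53 log2 units higher. CDCA8 and AURKB, 2 parts of the chromosomal passenger complex that corrects wrong attachments, were 2.57 ± 0.39 and 2.49 ± 0.49 units higher. NEK2, a centrosome kinase, was 2.50 ± 0.43 units higher. The adjusted p of these 4 genes ranged from 1.3e-04 to 1.3e-03 by edgeR. PLK1 had the largest fitted value, 3.31 ± 0.82, but it rests on 1 and 3 UMIs in the blood sums, and 0 UMIs were counted in non-PP of pig 1.

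**Figure D2:**
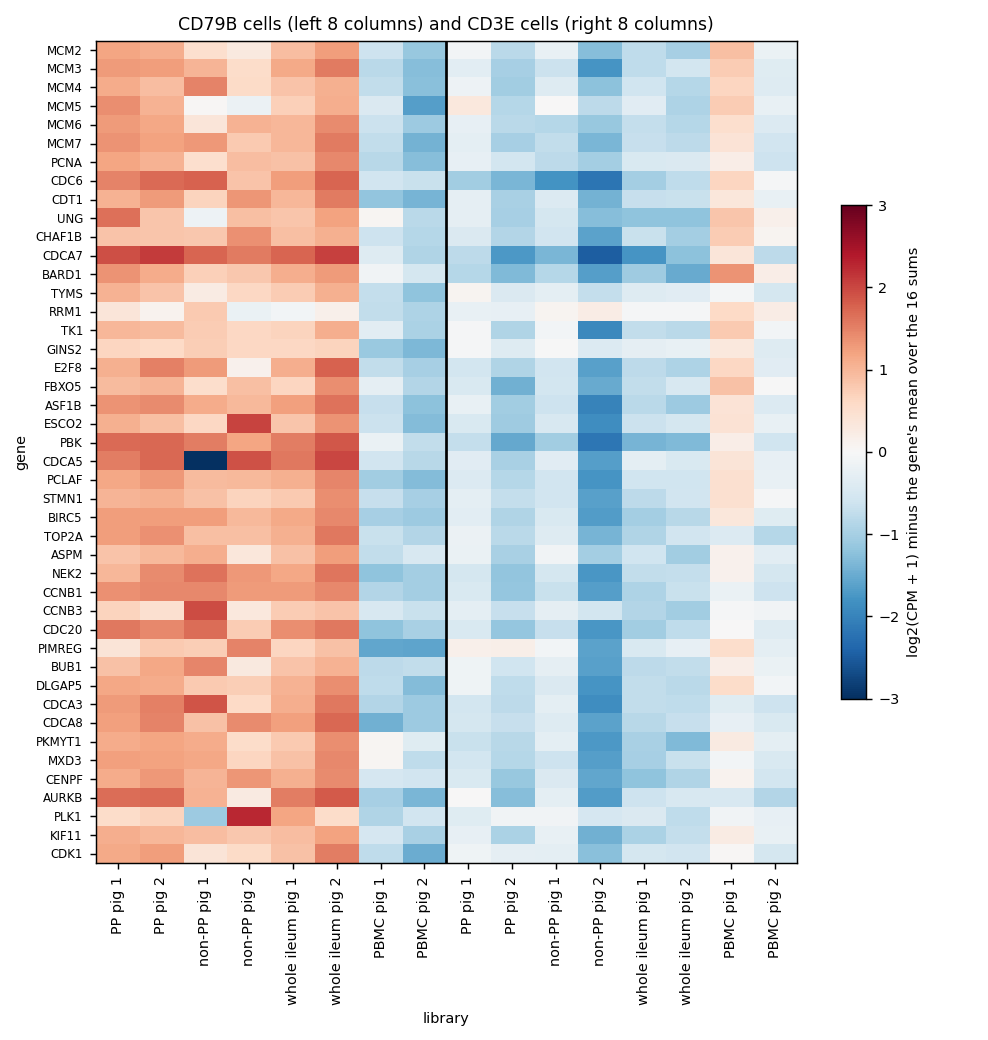
log2(CPM + 1) of the 44 genes, each minus its own mean over the 16 sums, in CD79B cells (left 8 columns) and CD3E cells (right 8 columns) by library. Ileal CD79B columns lie above blood CD79B columns in 41 of 44 genes. Within the CD3E columns PBMC pig 1 is the highest for 39 of the 44 genes.

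Most of these calls held when a library was left out. Without the whole ileum library of pig 1, 39 of 44 genes were called in B cells, and leaving out any other library gave 30 to 41. Other listed genes of replication and mitosis were called in the same direction, from lists chosen with earlier results of these data known. In ileal B cells 27 of 41 further replication genes and 52 of 60 further mitosis genes were higher and 0 were lower. Of all genes tested 11.1% were called higher and 16.1% lower. The median log2 differences were 1.23 for the replication list and 1.69 for the mitosis list. LIG1, which seals nicks, was 2.51 ± 0.42 units higher, and the mitotic motor KIFC1 was 2.52 ± 0.30 units higher, with adjusted p of 2.6e-04 and 1.1e-05 by edgeR. Of 23 cell cycle regulators 4 were higher and 2 lower, or 17.4% and 8.70%, with a median of 0.07. These shares are near those of all genes tested, so no result about this list is read from the counts. MYBL2, a factor of proliferating cells, was 2.87 ± 0.51 units higher and CDK2 1.83 ± 0.27 units higher, while cyclin CCND2 fell by 2.47 ± 0.30 units and the inhibitor CDKN1B fell by 0.50 ± 0.18 units. The adjusted p of these 4 ranged from 1.3e-05 to 0.0496 by edgeR.

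In T cells ileum was lower than blood for part of the set. Of the 44 genes, 16 were lower in ileal T cells and 0 were higher, where 10.6% of all genes tested were called lower and 10.7% higher. The median log2 difference was -0.81, against 0.01 over all genes tested, and 43 of 44 fitted differences were negative. In 17 of 44 genes all 6 ileal libraries were below both blood libraries, where this held for 16.9% of all genes. The calls were 6 of 9 genes of the replication panel, 0 of 5 of the mitosis panel and 10 of 30 genes outside them, and the contrast between panels was not itself tested. All 6 ileal libraries lay below both blood libraries in 2 of 9 replication genes and 2 of 5 mitosis genes. At an unadjusted edgeR p under 0.05, 8 of 9 replication genes and 3 of 5 mitosis genes would pass, as would 3994 of the 11920 genes tested.

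CDC6 and UNG separated from blood in every library. It ranged from 1.37 to 5.44 CPM over the 6 ileal T cell sums (median 3.7), against 15.9 and 9.63 CPM in blood, and was 2.02 ± 0.28 log2 units lower by the fit, or 4.05-fold, with an adjusted p of 6.7e-05 by edgeR. UNG ranged from 6.12 to 13.3 CPM (median 7.0), against 29.5 and 18.03 CPM, with an adjusted p of 9.5e-04 by edgeR.

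The helicase subunits were mostly lower in ileum too, with PP of pig 1 within the range of blood for each of them. MCM2 ranged from 7.62 to 18.7 CPM (median 11.11), against 37.9 and 17.1 CPM in blood. MCM3 ranged from 8.49 to 25.01 CPM (median 18.9), against 54.0 and 24.1 CPM. MCM4 ranged from 19.99 to 43.0 CPM (median 28.6), against 75.2 and 36.2 CPM. In each of these 3 genes, 5 of 6 ileal libraries were below both blood libraries, and PP of pig 1 was not. MCM6 ranged from 27.5 to 51.6 CPM (median 33.9), against 87.7 and 46.0 CPM. MCM2, MCM3, MCM4 and MCM6 were called, with adjusted p of 0.010 to 0.035 by edgeR. MCM7 ranged from 36.6 to 77.3 CPM (median 55.8), against 127 and 64.1 CPM, and its adjusted p was 0.079 by edgeR. MCM5 ranged from 10.6 to 26.6 CPM (median 14.2), against 36.8 and 18.03 CPM, with an adjusted p of 0.13 by edgeR. PCNA overlapped, with 2 of 6 ileal libraries below both blood libraries, at 115 to 200 CPM (median 167) against 272 and 154 CPM, with an adjusted p of 0.30 by edgeR.

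No mitosis gene of T cells was called. CCNB1 ranged from 11.9 to 28.1 CPM in ileum (median 22.1), against 34.2 and 24.9 CPM in blood. CDC20 ranged from 11.12 to 28.4 CPM (median 20.8), against 39.9 and 29.9 CPM, and CCNB3 from 1.81 to 3.81 CPM (median 2.79), against 4.71 and 4.41 CPM. In the latter 2 genes all 6 ileal libraries were below blood, yet the adjusted p was 0.070 and 0.13 by edgeR. ASPM ranged from 9.07 to 18.1 CPM (median 11.07), against 21.5 and 15.4 CPM. BUB1 ranged from 4.12 to 13.5 CPM (median 9.03), against 17.4 and 12.8 CPM. Both overlapped blood of pig 2.

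Outside the panels 10 of 30 genes were lower in ileal T cells. BARD1, the partner of BRCA1 in repair, was 2.36 ± 0.37 log2 units lower, at 2.0 to 4.22 CPM in ileum against 23.0 and 9.79 CPM in blood. CDCA7, CHAF1B, FBXO5 (an inhibitor of the ligase that ends mitosis) and PBK, a mitotic kinase, were 1.25 to 1.53 units lower, with adjusted p of 1.8e-03 to 0.029 by edgeR. In contrast, TYMS, TOP2A and AURKB had differences of -0.08 ± 0.26, -0.06 ± 0.38 and 0.04 ± 0.37. Of the listed pathway genes, 11 of 41 further replication genes, 15 of 60 further mitosis genes and 10 of 23 regulators were lower and 0 were higher, with medians of -0.57, -0.66 and -0.51. Of all genes tested 10.6% were called lower, and these lists were chosen with earlier results of these data known. The activator E2F2 fell by 2.09 ± 0.25 units and the S phase cyclins CCNE1 and CCNE2 fell by 1.59 ± 0.31 and 1.34 ± 0.23 units.

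The count in T cells rested on few libraries. Without blood of pig 1, 3 of 44 genes were called, and without non-PP of pig 1, 33. Leaving out whole ileum of pig 1 gave 9 and leaving out whole ileum of pig 2 gave 10. Keeping cells that passed more than 1 gate gave 5, but 17 genes were called with T cells that held 0 UMIs of the B cell markers.

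**Figure D3:**
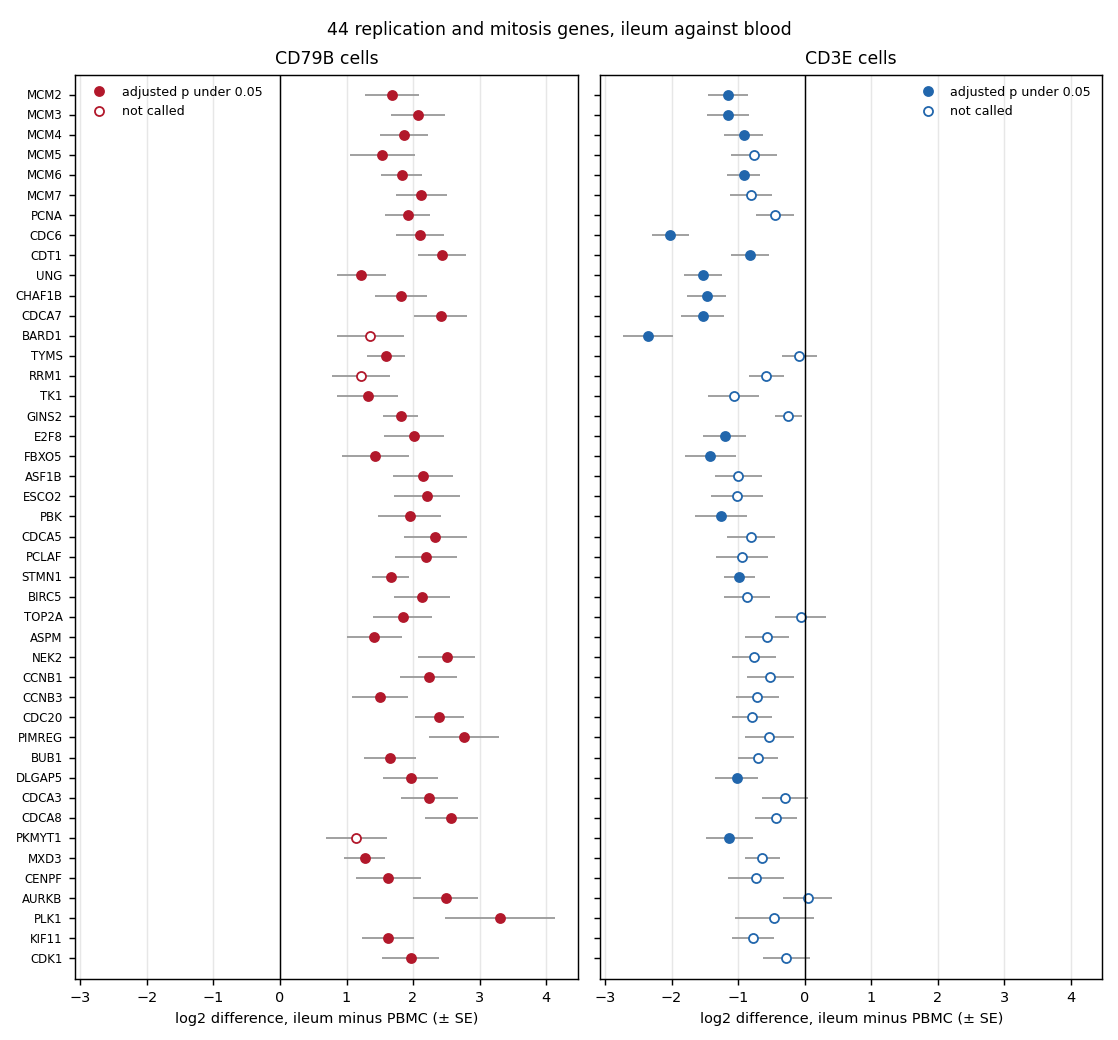
Fitted log2 differences, ileum minus PBMC, with their SE, of the 44 genes in CD79B cells (left) and CD3E cells (right), where filled points were called at an adjusted p under 0.05 by edgeR. All 44 points lie right of 0 in CD79B cells and 43 of 44 lie left of 0 in CD3E cells.

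The difference between ileum and blood itself differed between B and T cells. This interaction was added after both directions were seen. All 44 genes were called, each with the larger ileum minus blood difference in B cells, where 6.13% of all genes tested were called in that direction and 8.06% in the other, and the median difference of differences was 2.81 log2 units. CDC6 had the largest, 4.12 ± 0.46 with an adjusted p of 3.6e-05 by edgeR, followed by CDCA7 at 3.95 ± 0.52. Without whole ileum of pig 1, 41 of the 44 were called. Read within libraries, 42 to 44 of the 44 genes were higher in B than in T cells in each ileal library, whereas 43 and 44 of the 44 were higher in T than in B cells in the blood of pigs 1 and 2. The like shares of all genes per library are not given here. Of all 11920 genes tested, the fitted B minus T difference was positive in 5857 in PP and in 4379 in non-PP.

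Within PP tissue B cells exceeded T cells in 40 of 44 genes, with 0 lower, where 13.9% of all genes tested were called higher and 15.6% lower. The median log2 difference was 1.79, against -0.01 over all genes tested, and in all 44 genes both B cell sums were above both T cell sums, where this held for 36% of all genes. CDCA7 was 3.26 ± 0.45 units higher, at 89.2 and 99.9 CPM in B cells against 12.7 and 6.14 CPM in T cells, with an adjusted p of 3.2e-05 by edgeR. CDC6 was 3.04 ± 0.38 units higher, at 29.4 and 34.0 CPM against 4.22 and 3.17 CPM. PBK, BARD1, CDCA5 and AURKB were 2.20 to 2.82 units higher. TK1, RRM1, PIMREG and PLK1 were not called. This count depended strongly on which cells were taken. It was 4 when cells of more than 1 gate were kept, where a cell of both gates entered both sums. It was 20 with cells without UMIs of the other lineage's markers, and 36 without whole ileum of pig 1. Without PP of pig 2 it was 7 and without PP of pig 1 it was 26.

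Keeping cells that passed more than 1 gate moved the level of T cells by dissection. It took the replication panel of PP T cells from 387 ± 104 CPM (SD, n = 2) to 666 CPM and the mitosis panel from 73.2 ± 24.7 CPM to 142 CPM. The gate then held 2780 and 2404 PP T cells, against 1837 and 1783. In whole ileum T cells the replication panel went from 350 ± 9.54 CPM (SD, n = 2) to 570 CPM, while it was 284 ± 69.8 and 282 CPM in non-PP and 562 ± 247 and 565 CPM in blood.

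In non-PP tissue 22 of 44 genes were higher in B than in T cells and 0 were lower, where 5.39% of all genes tested were called higher and 6.28% lower. The median log2 difference was 1.85, against -0.36 over all genes tested. CDC6 was 3.75 ± 0.70 units higher, CDCA7 3.62 ± 0.62 and PBK 2.92 ± 0.76 units higher, with adjusted p of 9.1e-04 to 0.017 by edgeR. The cohesion enzyme ESCO2, NEK2 and the histone loader CHAF1B were 2.46 to 2.83 units higher. Without non-PP of pig 2, which leaves 27 B cells, 3 genes were called, and without whole ileum of pig 1, which enters through the shared spread, 15.

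Peyer's patches made no called difference within a cell class. In B cells 0 of 44 genes were called between PP and non-PP by edgeR, where 0.126% of all genes were called in either direction. DESeq2 also called 0. An unadjusted edgeR p under 0.05 was held by 0 of 44 genes, against 825 of all 11920 tested. The median log2 difference was 0.28 against 0.30 over all genes tested, with SE of 0.31 to 1.10. MCM7 was at 245 and 220 CPM in PP and 237 and 165 CPM in non-PP. CCNB1 was at 103 and 108 CPM in PP and 108 and 96.3 CPM in non-PP. PCNA was at 538 and 491 CPM in PP against 338 and 450 CPM in non-PP, which did not overlap, but its difference of 0.36 ± 0.38 was not called. In 20 of the 44 genes, PCNA among them, both PP libraries were above both non-PP libraries, and in 0 both were below. The like share of all genes is not given here, so no result is read from this count. Differences were positive in 37 of 44 genes and in 8019 of the 11920 genes tested. These non-PP levels come from 27 and 65 cells, against 3853 and 3790 in PP.

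In T cells 0 of 44 genes were called between PP and non-PP by edgeR and by DESeq2. Over all genes 1.17% were called in either direction by edgeR. An unadjusted edgeR p under 0.05 was held by 1 of 44 genes, against 1077 of all 11920 tested. That gene was CDC6, at 4.22 and 3.17 CPM in PP and 2.15 and 1.37 CPM in non-PP, a difference of 1.08 ± 0.46 with an adjusted p of 0.46 by edgeR. Differences were positive in 41 of 44 genes, with a median of 0.35 against -0.01 over all genes tested. When cells of more than 1 gate were kept, 10 genes were called higher in PP. The share of all genes called in that setting is not given here, so no result is read from this count. The difference of the PP minus non-PP contrast between B and T cells was also tested. There edgeR and DESeq2 called 0 of 44 genes, where edgeR called 0.277% of all genes in either direction. An unadjusted edgeR p under 0.05 was held by 0 of 44 genes, against 689 of all 11920 tested.

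Levels in epithelial cells were uneven between libraries. The replication panel made up 287 and 175 CPM in PP, 85.9 and 249 CPM in non-PP and 316 and 361 CPM in whole ileum, and the mitosis panel 39.3 and 151 CPM, 7.81 and 54.3 CPM, and 67.1 and 99.8 CPM. The lowest sum in both panels was non-PP of pig 1, which also held the most EPCAM cells, 164. Of its cells, 4 held a mitosis UMI, or 2.44% (exact 95% interval 0.668% to 6.13%), and 0 did after thinning. The mitosis panel was higher in epithelial than in T cells in 4 of the 6 ileal libraries, the exceptions being PP and non-PP of pig 1, while the replication panel was lower in 4 of 6. Between PP and non-PP 0 of 44 genes were called by edgeR and by DESeq2, and edgeR called 0.0168% of all genes in either direction. An unadjusted edgeR p under 0.05 was held by 7 of 44 genes, against 933 of all 11920 tested.

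Against T cells of the same non-PP libraries 8 of 44 genes were lower in epithelial cells and 0 were higher, where 22% of all genes tested were called lower and 24.4% higher. STMN1, which destabilises microtubules, was at 39.8 and 61.1 CPM against 450 and 218 CPM, a log2 difference of -2.72 ± 0.34 with an adjusted p of 6.5e-06 by edgeR. GINS2, the MAX-binding factor MXD3, TYMS, PCNA and CENPF were 1.26 to 1.95 units lower. PIMREG had 0 UMIs and BUB1 had 0 and 1 UMIs in these EPCAM sums, so their fitted values are not given. The 2 pigs differed in non-PP: 43 of 44 genes were lower in epithelial than in T cells of pig 1, and 34 of 44 were higher in pig 2. In whole ileum 25 and 27 of 44 were higher in epithelial cells, and in PP 8 and 20 were. The like shares of all genes per library are not given here. Of all 11920 genes tested, the fitted non-PP difference was positive in 5470 and negative in 6378. Without non-PP of pig 2, 27 genes were called, all lower, and without non-PP of pig 1, 4 were higher and 1 was lower. Since 22% of all genes were lower in this contrast, 8 of 44 is not above the background.

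How the 30 genes outside the panels go with each panel was read in cells chosen by their panel UMIs. Mitosis cells had at least 3 mitosis UMIs, and most of them also held replication UMIs. They were set beside replication-only cells, with at least 3 replication UMIs and no mitosis UMI, in the 4 PP and whole ileum libraries. These cells were chosen by measured values and differ in depth, with median UMIs of 3212 to 4302 against 4578 to 6087.5 in B cells, so the levels are a description with no test. In B cells 7 genes were higher in replication-only cells in all 4 libraries, 17 were higher in mitosis cells in all 4, and 6 were mixed.

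The 7 genes higher in replication-only cells have different known roles. PKMYT1, a kinase that restrains CDK1, had a mitosis to replication-only ratio of 0.35, CHAF1B and BARD1 of 0.38, CDT1 of 0.41, GINS2 of 0.48, CDCA7 of 0.63 and TYMS of 0.65. TK1, CDCA5, PCLAF, FBXO5, ESCO2 and E2F8 lay between, with ratios of 0.94 to 1.13. PCLAF, a PCNA-binding factor, was at 1071 CPM in replication-only cells and 1098 CPM in mitosis cells.

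Of the genes higher in mitosis cells, PIMREG had the highest ratio. CDK1 had a ratio of 2.56, the survival and passenger protein BIRC5 of 2.96, AURKB of 3.65 and the spindle motor KIF11 of 3.76. TOP2A, which untangles chromosomes, had a ratio of 5.2, CENPF of 7.43, the spindle factor DLGAP5 of 7.71, NEK2 of 8.43 and PIMREG of 28.3, the last on 21 and 646 UMIs. STMN1 and ASF1B leaned less, at 1.32 and 1.43. RRM1, a subunit of ribonucleotide reductase, had a ratio of 1.56 on 58 and 104 UMIs.

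T cells gave a like order on fewer cells. There 5 genes were on the replication side in all 4 libraries, 16 on the mitosis side and 9 were mixed. All 5 and all 16 were on the same side in B cells, and 0 genes took opposite sides. NEK2 had a ratio of 10.0 and TOP2A of 4.34 in T cells, and CHAF1B of 0.25. Replication genes were not absent from mitosis cells: 76.7% to 88.7% of mitosis B cells held at least 1 replication UMI. Of all B cells of these 4 libraries 61.0% to 72.3% did, at lower median depths of 2758 to 3185 UMIs.

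**Figure D4:**
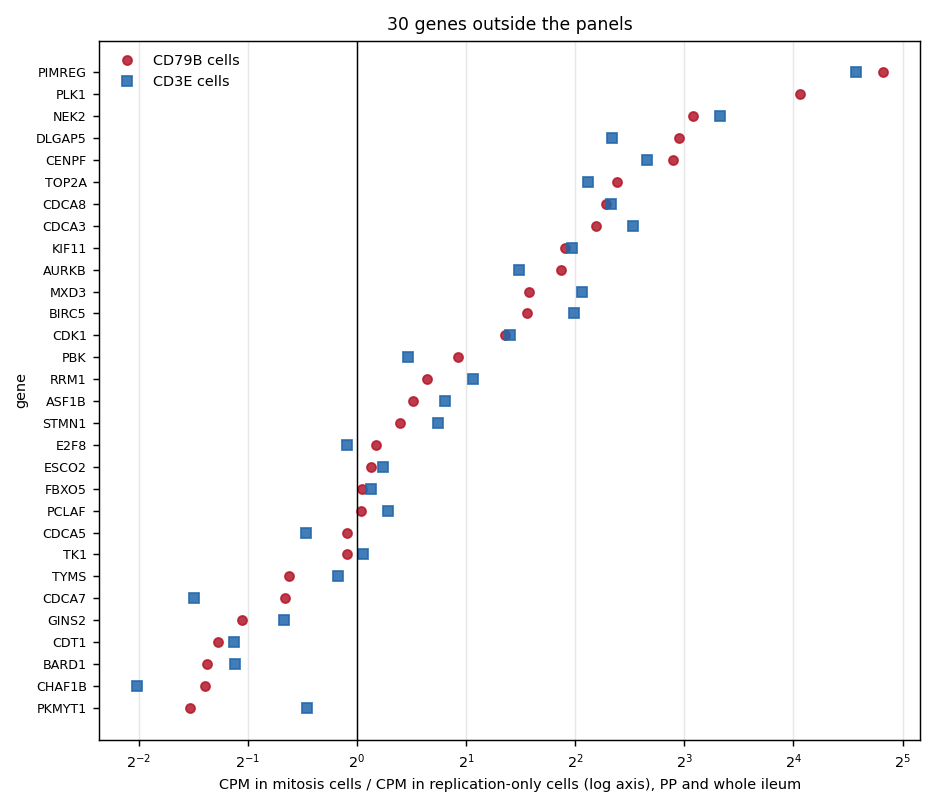
Ratio of CPM in mitosis cells to CPM in replication-only cells (log axis) for the 30 genes outside the panels, from the mean of the 4 PP and whole ileum libraries, in CD79B cells (circles) and CD3E cells (squares). Genes run from PKMYT1 at 0.35 to PIMREG at 28.3 in CD79B cells, and PLK1 has no CD3E point because its replication-only level was 0.

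In TYMS a part of the level lay outside such cells. In B cells without any UMI of either panel TYMS was at 134 CPM, against 422 CPM in replication-only cells. STMN1 was at 385 CPM and BIRC5 at 85.8 CPM in the same cells, while CDK1, TOP2A and CDCA7 were at 9.30, 9.24 and 11.6 CPM. The cells without either panel had a median depth of 1911.5 to 2294 UMIs.

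Within T cells the CPM of the replication panel was lower in gamma delta cells than in CD4 or CD8B cells of every library, as a description with no test. The thinned shares did not follow this everywhere. In whole ileum of pig 1, 22.7% of TRDC cells and 20.6% of CD4 cells held a replication UMI, and in blood of pig 1, 6.35% of TRDC cells and 6.02% of CD8B cells held a mitosis UMI. CD3E cells of ileum with a TRDC UMI, the constant chain of the gamma delta receptor, and no CD4 or CD8B UMI held 195 to 401 CPM of the replication panel and 12.1 to 65.3 CPM of the mitosis panel. Cells with CD8B alone held 318 to 535 CPM and 80.3 to 168 CPM, and cells with CD4 alone 343 to 662 CPM and 35.2 to 165 CPM. In each of the 6 ileal libraries CD8B cells were above TRDC cells in both panels. In blood TRDC cells held 720 CPM of the replication panel in pig 1 and 283 CPM in pig 2, and CD8B cells 874 and 527 CPM. Blood of pig 1 thus stood above the ileum in all 3 subsets for replication.

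**Figure D5:**
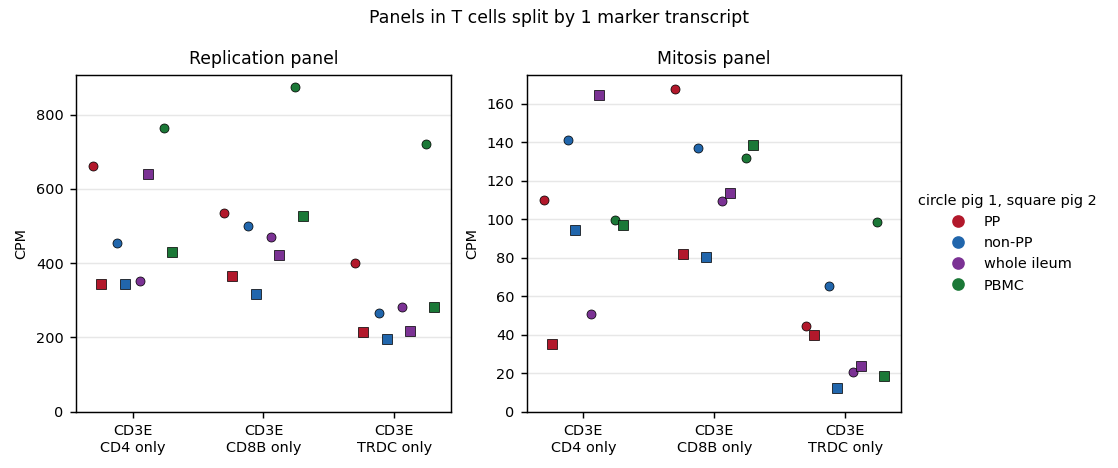
CPM of the replication panel (left) and mitosis panel (right) in CD3E cells with CD4, CD8B or TRDC alone, with 1 point per library (circle pig 1, square pig 2). CD8B points lie above TRDC points of the same library in both panels, and blood of pig 1 is the highest replication point of each subset, at 720 CPM in TRDC cells and 874 CPM in CD8B cells.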

How the data were processed

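The authors deposited raw matrices of UMI counts per gene and barcode, made with Cell Ranger (4.0.6 in the submitters' processing notes) from reads aligned to Sus scrofa 11.1 with a modified Ensembl annotation. The counts were not normalized. Cells were kept at 1250 UMIs, 550 genes and 12.5% mitochondrial UMIs, and gated on CD79B, CD3E and EPCAM. The 48 genes and all lists were chosen with earlier results of these data known. Counts were summed per library and gate (at least 20 cells) and fitted in edgeR 4.0.16 (R 4.3.3) with TMM scaling, its default filter on low counts and 1 term per class and dissection, with 11 residual degrees of freedom. DESeq2 1.42.0 was an alternative. SE was the log2 difference divided by the square root of F. The fit was tested on simulated data. Doublets were scored with Scrublet in scanpy 1.11.5 (score over 0.25) and removed only in an alternative. Free RNA was read in barcodes under 100 UMIs. Named genes were the genes of both panels and, in each comparison, the 5 further genes called with the largest differences; other genes named were chosen after their values were seen. Samples of a number come from 1 pig by the labels; their deviations correlated at 0.0152 to 0.5412 over 28 pairs without whole ileum and at -0.0835 to 0.0813 over 27 pairs with it. A result on a split of B cells is not reported here.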

Additional observations from a re-analysis of the deposited data

Results flagged for a closer look

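One result was picked out because the same contrast differed between cell classes by a test of that difference. For 44 of 44 genes the ileum minus blood difference was larger in CD79B cells than in CD3E cells, by edgeR's quasi-likelihood test of the interaction with Benjamini-Hochberg adjustment. The test was chosen after both directions were known, both classes come from the same 8 libraries, and the T cell side rests strongly on blood of pig 1. Dixon's criterion was applied to each panel in each class over the ileal libraries of all dissections together. No ileal library stood apart in these 6 groups, and blood libraries were not tested in this way.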

How the results depend on the processing

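Of the 41 genes higher in ileal B cells, 30 to 41 were called when 1 library was left out, and the added interaction called 31 to 43 of 44. The counts that moved by over 1.5 times were those of T cells, of B against T cells in PP and in non-PP, and of epithelial cells. With cells of more than 1 gate kept, 10 genes were called between PP and non-PP T cells and 5 between ileal and blood T cells. The same setting gave 4 between PP B and T cells and 13 between non-PP epithelial and T cells. There a cell entered the sum of each class whose gate it passed, and the share of all genes called is not given. With gates of 2 UMIs, 25 genes were called between ileal and blood T cells. Non-PP B cells of pig 1 numbered 17 at these gates, under the 20 cells needed for a sum. Only pig 2 was left there for non-PP B cells, so no count against T cells is given. Ileal against blood T cells gave 10 with the classes fitted separately and 10 with the dissections summed per pig, the latter chosen after seeing the data. Cells without UMIs of the other lineage's markers, also chosen after seeing the data, gave 20 between PP B and T cells, and too few non-PP B cells remained there for a fit. Thinned cells gave 4 between non-PP epithelial and T cells. Leaving out 1 library gave 0 to 1 between PP and non-PP T cells, 0 to 4 between PP and non-PP epithelial cells, 3 to 33 between ileal and blood T cells, 7 to 41 between PP B and T cells, 3 to 29 between non-PP B and T cells and 5 to 27 between non-PP epithelial and T cells. Single genes reversed as follows. CDCA5 in ileal against blood B cells went from 2.56 to -1.19, and in the interaction from 3.79 to -0.57, across the libraries left out, with the negative value without non-PP of pig 2, which leaves a sum of 0 UMIs. CENPF between non-PP epithelial and T cells went from -5.46 to 0.22, and CCNB3 between ileal and blood B cells was -0.63 after thinning. The cause was not tested. With the labelled pig as a replicate block, 42, 23, 41, 23 and 9 genes were called in the 5 comparisons with calls. The interaction gave 44, and all 171 called values stayed called. This block put whole ileum of pig 1 with pig 1, although its Y-linked UMIs went against that label. The comparisons of PP with non-PP B or epithelial cells rest on 2 pigs and on 27 to 164 cells per non-PP sum.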
